A study of Mus musculus with 6 samples.

Results

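The genes described here encode the machinery that brings secretory and membrane proteins into the endoplasmic reticulum (ER) of the cell: the signal recognition particle and its receptor, the Sec61 channel with Sec62 and Sec63, the TRAP complex, the TRAM proteins, signal peptidase and the oligosaccharyltransferase. They were chosen by gene symbol for these roles, and all 34 of the 34 symbols were found among the 23420 rows of the count table. Poly(A) RNA from mouse pancreatic islets was sequenced in 3 OIO libraries and 3 Control libraries. The OIO mice were overfed by gastric infusion of the liquid diet Ensure for 9 days, at 13 to 18.5 kcal per day, and the Control mice received gastric infusion of saline over the same 9 days. All mice were C57BL/6J, and no transgene, gene deletion or drug is named for either group. The sources used here give neither age nor sex, nor whether a library came from 1 mouse or from several. The p-values below therefore cover the spread from library to library, which may be technical.

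A protein bound for secretion carries a signal peptide at its start, which the signal recognition particle binds as it leaves the ribosome. The particle docks on its receptor at the ER membrane, the chain passes through the Sec61 channel with help from TRAP and TRAM, signal peptidase cuts the signal peptide off, and the oligosaccharyltransferase attaches a preassembled sugar chain to asparagines of many chains as they enter. Islet endocrine cells make peptide hormones in very large amounts, and preproinsulin, the insulin precursor, takes this route. TRAP in particular is known to help preproinsulin enter the ER in beta cells.

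The libraries held 20968058, 48178375 and 36437109 counts for OIO 1 to 3 and 34103107, 37548350 and 39286793 counts for Control 1 to 3, and the 34 genes took 0.686% to 0.806% of them. The islet hormone genes Ins1, Ins2, Gcg and Iapp held 27.1% to 30.8% of all counts. Expression is given as CPM, the counts of a gene relative to the total of its library after TMM scaling, which sets aside the genes that differ most between libraries. Within groups, OIO 3 was the highest OIO library for 26 of the 34 genes, and Control 2 the lowest Control library for 23 of 34 and for 8 of the 10 genes called below. This order is not particular to the 34 genes. The summed CPM of all 14903 genes tested was also highest of the OIO libraries in OIO 3 (1047317) and lowest of the Control libraries in Control 2 (964701). OIO 3 also stood apart in 1 plasma cell marker, Igj, a part of secreted antibodies, at 9.87, 6.80 and 58.8 CPM in OIO islets and 6.65, 6.66 and 12.7 CPM in Control islets. The plasma cell marker Mzb1 was likewise highest in OIO 3, while Sdc1 and Xbp1 did not set that library apart. Without OIO 3, 9 of the 10 genes called below still passed. Derl3, listed with these markers, was higher in every OIO library than in any Control library (adjusted p = 0.022 in edgeR's test). Omitting OIO 3 does not address that difference. Summed alpha cell markers ran from 51742 to 61904 CPM in OIO islets and from 43717 to 79708 CPM in Control islets, with the highest value in Control 2, and summed beta cell markers from 241222 to 264060 CPM in OIO islets and from 186080 to 237801 CPM in Control islets. Slc2a2, 1 of 8 beta cell markers, was called lower in OIO islets (adjusted p = 0.044 in edgeR's test). It passed with only 1 of the possible omissions of a library (highest adjusted p 0.14 in that test). No other beta cell marker was called. The log2 fold change of OIO over Control was positive for 5 of the 8 and negative for 3. Ucn3 (0.26), Ins1 (0.28) and Iapp (0.2) had every OIO library above every Control library. Their adjusted p was 0.053, 0.078 and 0.075 in edgeR's test. Without Control 2, all 10 genes passed.

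Some subunits of this machinery had higher RNA levels in OIO islets. Of the 34 genes, 10 were higher in OIO islets, none was lower and 24 did not pass the test. The genes that rose were Ssr4 and Ssr2 of TRAP, Sec61b of the channel, Sec11c and Spcs1 of signal peptidase, and Ddost, Rpn1, Rpn2, Dad1 and Krtcap2 of the oligosaccharyltransferase, with differences between 26.7% and 58.0%. The test was edgeR's quasi-likelihood test with Benjamini-Hochberg adjustment over all 14903 genes tested and a threshold of 0.05. The 10 genes are 29.4% of the group, where 4.54% of all genes tested were called higher in OIO islets, 2.84% were called lower and 7.37% were called in either direction. At an unadjusted p under 0.05 in the same test, 15 of the 34 were higher and 0 lower. Of all 14903 genes, 1765 were higher and 1728 lower at that mark, which is also the background for the unadjusted counts given below. DESeq2 and limma voom each also called 10 of the 34 higher and 0 lower. Over all 14903 genes DESeq2 called 903 higher and 511 lower, and limma voom 640 higher and 346 lower. The log2 fold changes (OIO over Control, as throughout) ran from −0.14 to 0.66, with 28 positive and 6 negative and a median of 0.14, against a median of −0.01 over all genes tested.

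The summed level of the 34 genes was 7970, 8038 and 8447 CPM in the OIO libraries and 7003, 6624 and 7181 CPM in the Control libraries. The groups did not overlap, and the ratio of the group means was 1.18. Summed over all 14903 genes tested, OIO libraries stood at 1003965, 1017140 and 1047317 CPM. Control libraries stood at 990845, 964701 and 978191 CPM on that sum. Those groups did not overlap either, and their ratio of 1.05 is the background for the ratios of sums given below. The 10 called genes together stood at 3129, 3154 and 3231 CPM in OIO islets and 2288, 2088 and 2256 CPM in Control islets, a ratio of 1.43. The other 24 genes together stood at 4841, 4883 and 5216 CPM in OIO islets and 4715, 4536 and 4925 CPM in Control islets, which overlap, with a ratio of 1.05. Because the genes were divided by whether they passed the test, the contrast between these sums follows from the division and is a description. Taken singly, 17 of the 34 genes (50%) had all OIO libraries above all Control libraries, against 14.1% of all genes tested, and none had all OIO libraries below, against 15.1%. In bulk tissue, more RNA per cell and more cells of a type that holds much of an RNA cannot be told apart.

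**Figure D1:**
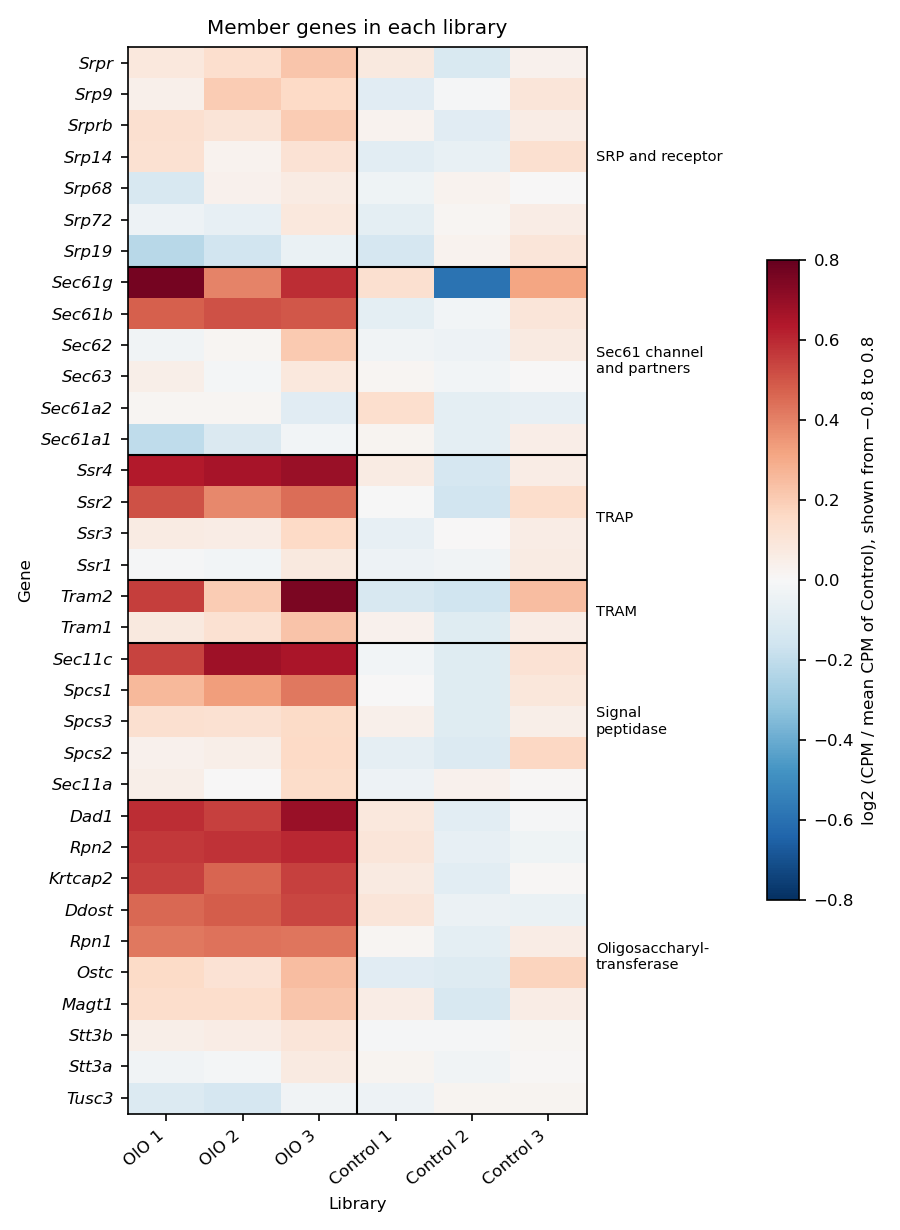
Level of each of the 34 genes in each library, as the log2 ratio of its CPM to the mean CPM of the Control libraries (red above, blue below), OIO libraries left of Control libraries and genes grouped by machine. The 10 genes past the threshold are red in all 3 OIO libraries, as are the low-level Sec61g and Tram2, while most of the signal recognition particle and channel genes lie near the Control mean.

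The first machine, the signal recognition particle and its receptor, had none of its 7 genes past the threshold in either direction. At an unadjusted p under 0.05, 1 was higher and 0 lower, and DESeq2 and limma voom also called 0. The median log2 fold change was 0.09. The summed level was 1204 ± 53.9 CPM in OIO islets and 1134 ± 41.9 CPM in Control islets (SD, n = 3 each), a ratio of 1.06. The gene of lowest p was Srprb, the receptor subunit that anchors the receptor in the ER membrane. Its level was 86.2, 84.6 and 90.7 CPM in OIO islets and 80.6, 74.0 and 82.2 CPM in Control islets, a log2 fold change of 0.14 ± 0.06 (SE) with adjusted p = 0.18 in edgeR's test.

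Srpr, the receptor subunit that binds the particle, stood at 548, 566 and 601 CPM in OIO islets and 545, 474 and 528 CPM in Control islets. OIO and Control libraries of both receptor genes did not overlap, but for Srpr the lowest OIO library lay close to the highest Control library, and its adjusted p was 0.21. Of the particle's own proteins, Srp9, which forms with Srp14 the part that pauses translation, stood at 50.5, 56.6 and 54.8 CPM in OIO islets and 46.1, 48.7 and 52.4 CPM in Control islets, and its groups overlapped. Srp19, which helps assemble the particle on its RNA, had the lowest log2 fold change of the 34, −0.14 ± 0.08 (SE), with 23.0, 24.2 and 25.9 CPM in OIO islets and 24.5, 27.5 and 28.7 CPM in Control islets and an adjusted p of 0.33 in edgeR's test. Srp14 had a log2 fold change of 0.09, and Srp68 and Srp72, the largest proteins of the particle, each had −0.01. Annotated transcripts of Srpr and Srprb share 30.2% and 29.4% of their 31-base words with other annotated genes, so their counts are less certain than most.

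In the Sec61 channel, the small subunit Sec61b rose while the pore-forming subunit did not. Sec61b, a single-pass subunit at the side of the channel, stood at 159, 163 and 162 CPM in OIO islets and 109, 113 and 122 CPM in Control islets. Every OIO library lay well above every Control library, with a log2 fold change of 0.49 ± 0.06 (SE) and adjusted p = 0.0012 in edgeR's test. Of the 31-base words of Sec61b transcripts, 54.5% also occur in other annotated genes, chiefly the copy Gm10320 with 48.7%, so its count is uncertain in the same measure. Sec61a1, the pore itself, stood at 273, 290.5 and 309.8 CPM in OIO islets and 318, 298 and 326 CPM in Control islets, with overlapping groups, a log2 fold change of −0.11 ± 0.06 (SE) and adjusted p = 0.34.

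The remaining channel genes did not pass the test. Sec61g, the other small subunit, was listed at only 5.80, 4.48 and 5.12 CPM in OIO islets and 3.72, 2.26 and 4.23 CPM in Control islets. Its groups did not overlap, but its log2 fold change of 0.58 had an SE of 0.22 and an adjusted p of 0.15, and 21.3% of its 31-base words are shared with other genes. Sec61a2, a second form of the pore, stood at 12.9, 12.9 and 12.0 CPM in OIO islets and 14.1, 12.1 and 12.2 CPM in Control islets, with overlap. Sec62 and Sec63 help chains enter, and Sec63 recruits the chaperone BiP to the channel. Sec62 stood at 215, 221 and 254 CPM in OIO islets and 215, 213 and 230.0 CPM in Control islets, with overlap and a log2 fold change of 0.07, and Sec63 had a log2 fold change of 0.04. Over the 6 genes, 1 rose and 0 fell, with 2 higher and 0 lower at an unadjusted p under 0.05. The median log2 fold change was 0.05, and the summed levels were 934 ± 43.7 CPM in OIO islets and 892 ± 30.5 CPM in Control islets (SD, n = 3 each).

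TRAP sits beside the channel and helps chains with weak signal peptides to enter, and 2 of its 4 subunits rose. Ssr4, its delta subunit, had the highest log2 fold change and the lowest p of the 34 genes. Its level was 352, 358 and 365 CPM in OIO islets and 237, 207 and 237 CPM in Control islets, a log2 fold change of 0.66 ± 0.06 (SE) with adjusted p = 0.00055 in edgeR's test. Ssr2, the beta subunit, stood at 271, 249 and 259 CPM in OIO islets and 190.5, 171 and 210.1 CPM in Control islets. Both genes had all OIO libraries above all Control libraries, and for Ssr2 the log2 fold change was 0.45 ± 0.08 (SE) with adjusted p = 0.0079.

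The alpha and gamma subunits did not pass. Ssr1, the alpha subunit, stood at 321, 319 and 341 CPM in OIO islets and 315, 317 and 338 CPM in Control islets, a log2 fold change of 0.02 ± 0.06 (SE). Ssr3, the gamma subunit, stood at 423, 420.1 and 452 CPM in OIO islets and 387, 405 and 421 CPM in Control islets, a log2 fold change of 0.10 with adjusted p = 0.37. The OIO and Control libraries of Ssr1 and Ssr3 overlapped. The summed level of TRAP was 1377 ± 37.0 CPM in OIO islets and 1144 ± 54.8 CPM in Control islets (SD, n = 3 each), a ratio of 1.20.

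The TRAM genes did not pass in either direction, with 1 higher and 0 lower at an unadjusted p under 0.05 and 0 called by DESeq2 or limma voom. Tram1, a membrane protein that chains contact as they leave the channel, stood at 377, 388 and 418 CPM in OIO islets and 366, 333 and 371 CPM in Control islets. The groups did not overlap, the log2 fold change was 0.15 ± 0.06 (SE), and the adjusted p was 0.21 in edgeR's test. Its relative Tram2 stood at 1.72, 1.35 and 1.98 CPM in OIO islets and 1.08, 1.05 and 1.39 CPM in Control islets, a log2 fold change of 0.51 ± 0.26 (SE) with adjusted p = 0.28.

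Signal peptidase exists with either Sec11a or Sec11c as its catalytic subunit, and of these Sec11c passed the test. Sec11c stood at 171, 189 and 185 CPM in OIO islets and 116, 110.0 and 127 CPM in Control islets, a log2 fold change of 0.63 ± 0.07 (SE) with adjusted p = 0.00084 in edgeR's test. Its OIO libraries lay far above its Control libraries. Sec11a stood at 56.0, 54.3 and 60.0 CPM in OIO islets and 52.7, 55.5 and 54.6 CPM in Control islets, with overlap, a log2 fold change of 0.07 and adjusted p = 0.55.

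Of the accessory subunits, Spcs1 rose. It stood at 201, 212 and 224 CPM in OIO islets and 168, 157 and 178 CPM in Control islets, with no overlap, and its log2 fold change was 0.34 ± 0.06 (SE) with adjusted p = 0.013 in edgeR's test. Spcs1 was the one called gene that missed the threshold under any alternative tried: without the third OIO library its log2 fold change was 0.31 with adjusted p = 0.051. Spcs3, an accessory subunit needed for cleavage in yeast, stood at 456, 454 and 463 CPM in OIO islets and 429.7, 390.0 and 431 CPM in Control islets. Its groups did not overlap, but its adjusted p was 0.20. Spcs2 stood at 306, 308 and 334 CPM in OIO islets and 284, 276 and 335 CPM in Control islets, and its groups overlapped. The summed level of the 5 genes was 1224 ± 39.0 CPM in OIO islets and 1055 ± 68.8 CPM in Control islets (SD, n = 3 each), a ratio of 1.16.

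The oligosaccharyltransferase, the largest of the machines, had 5 of 10 genes that rose, the same share as TRAP with 2 of 4. None fell, and 6 were higher and 0 lower at an unadjusted p under 0.05. Its summed level was 3017 ± 68.4 CPM in OIO islets and 2354 ± 92.8 CPM in Control islets (SD, n = 3 each), a ratio of 1.28, and its median log2 fold change was 0.30. Of the subunits shared by the forms of the enzyme, Rpn1, Rpn2, Ddost and Dad1 rose. Rpn2 (ribophorin II) stood at 737, 742 and 753 CPM in OIO islets and 532, 475 and 484 CPM in Control islets. Rpn1 (ribophorin I), which sits next to the channel, stood at 467, 473 and 470.1 CPM in OIO islets and 353, 330.2 and 364 CPM in Control islets. Neither ribophorin had overlapping groups, and their log2 fold changes were 0.58 ± 0.06 and 0.43 ± 0.06 (SE), with adjusted p of 0.00066 and 0.0021 in edgeR's test.

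Ddost, the subunit also called OST48, stood at 522, 533 and 552 CPM in OIO islets and 407, 368 and 366 CPM in Control islets. Dad1, a small subunit first known as a defender against cell death, stood at 154, 149 and 165 CPM in OIO islets and 109, 96.7 and 102 CPM in Control islets. Both had every OIO library above every Control library, with log2 fold changes of 0.49 ± 0.06 for Ddost and 0.61 ± 0.06 for Dad1 (SE) and adjusted p of 0.0015 and 0.00066 in edgeR's test. The catalytic subunits did not pass the test. Stt3a, which works on chains still passing through the channel, stood at 293, 295 and 314 CPM in OIO islets and 303, 293 and 301 CPM in Control islets, a log2 fold change of 0.01 ± 0.05 (SE) with adjusted p = 0.93. Stt3b, which acts on sites that Stt3a leaves unmodified, stood at 113, 114 and 117 CPM in OIO islets and 109, 108 and 111 CPM in Control islets, a log2 fold change of 0.07 ± 0.05 (SE) with adjusted p = 0.44. Stt3a groups overlapped, and those of Stt3b lay apart by a narrow margin.

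Of the subunits that distinguish the Stt3a and Stt3b forms of the enzyme, Krtcap2 passed the test. Krtcap2 and Ostc belong to the Stt3a form, which sits at the channel. Krtcap2 stood at 94.0, 88.9 and 94.2 CPM in OIO islets and 67.7, 60.8 and 64.8 CPM in Control islets, with no overlap, a log2 fold change of 0.52 ± 0.06 (SE) and adjusted p = 0.00098. Ostc stood at 210.3, 204 and 224 CPM in OIO islets and 177, 176 and 214 CPM in Control islets, with overlap and adjusted p = 0.22. Without the third Control library, the highest Control library for Ostc, its log2 fold change was 0.27 with adjusted p = 0.036 in edgeR's test. Magt1 and Tusc3 are alternative thiol-active subunits of the Stt3b form. Magt1 stood at 292, 292 and 309 CPM in OIO islets and 276, 242 and 275 CPM in Control islets, without overlap but with adjusted p = 0.14, and Tusc3 at 91.3, 90.0 and 96.6 CPM in OIO islets and 95.8, 100.1 and 100.1 CPM in Control islets, with overlap and a log2 fold change of −0.09.

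**Figure D2:**
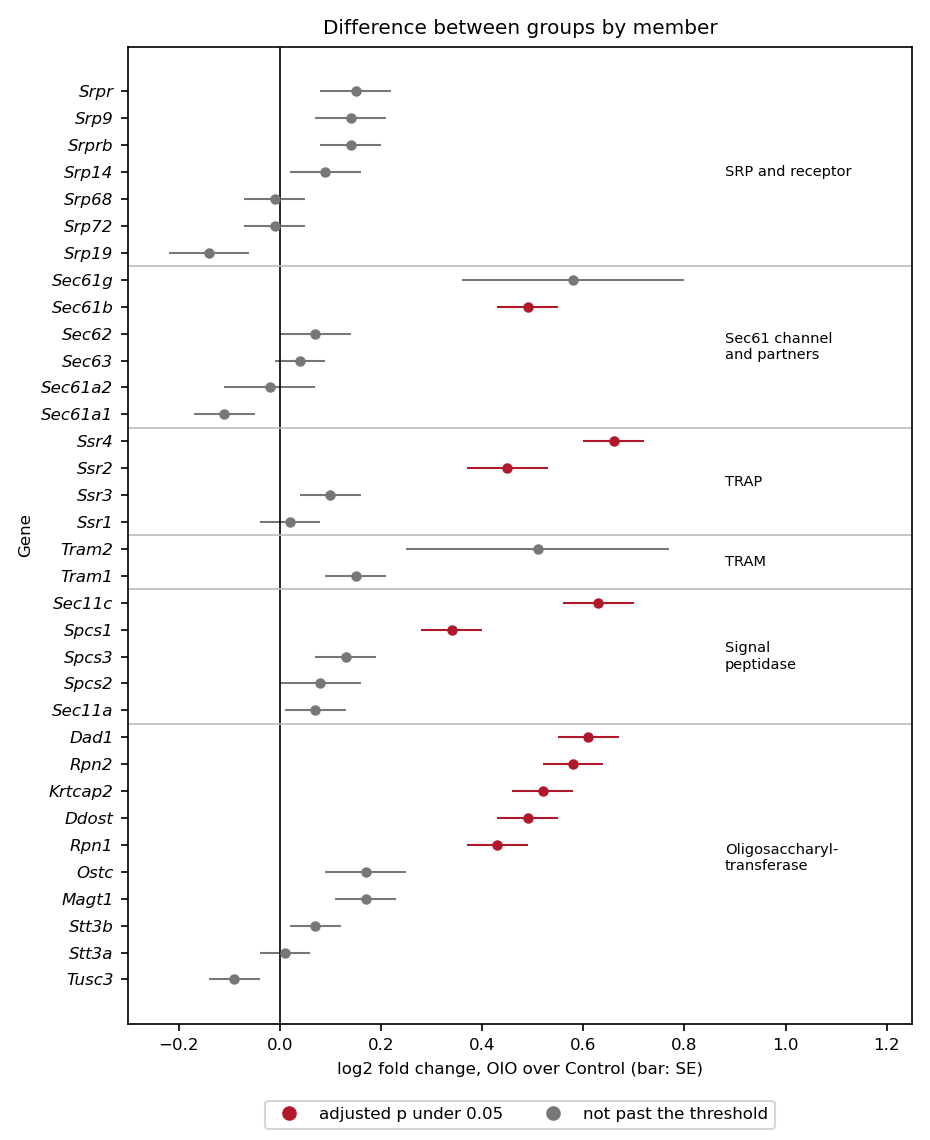
Log2 fold change of OIO over Control for each of the 34 genes, grouped by machine, with bars of 1 SE, where red points are genes past the threshold in edgeR's test and grey points are not. The 10 red points lie between 0.34 and 0.66, and the other genes between −0.14 and 0.58.

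Levels can be set against each other between genes only per length of transcript, and here the length is that of 1 annotated transcript per gene (GENCODE M21), so these levels are approximate. Among the called genes, Ssr4 was the highest per kilobase, with 468 CPM per kb in OIO islets and 296 CPM per kb in Control islets. Spcs1 followed with 302 CPM per kb in OIO islets and 239 CPM per kb in Control islets, then Sec61b with 286 in OIO islets and 203 in Control islets on the same scale. With the length of 3491 bases used for it, Dad1 was the lowest of the called genes, at 44.7 CPM per kb in OIO islets and 29.3 CPM per kb in Control islets. Dad1 has 2 annotated protein-coding transcripts, and a shorter one would raise these values and could change its rank. Stt3a stood at 51.3 CPM per kb in OIO islets and 50.9 CPM per kb in Control islets, and Stt3b at 27.2 CPM per kb in OIO islets and 25.9 CPM per kb in Control islets.

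Alternative subunits were compared as log2 ratios of CPM per kb within each library, which do not depend on library scaling. Sec11a over Sec11c was −2.32 ± 0.10 in OIO islets and −1.76 ± 0.12 in Control islets (SD, n = 3 each), so that Sec11a made up 17.3%, 15.6% and 17.2% of the pair in OIO libraries and 22.6%, 24.4% and 21.5% in Control libraries. Magt1 over Tusc3 was 0.12 ± 0.01 in OIO islets and −0.14 ± 0.13 in Control islets, with Magt1 making up 52.0%, 52.4% and 52.0% of the pair in OIO libraries and 49.4%, 45.0% and 48.2% in Control libraries. Stt3a over Stt3b was 0.92 ± 0.03 in OIO islets and 0.98 ± 0.02 in Control islets, a small difference of −0.06. For these 3 ratios the groups did not overlap, and the exact 2-sided permutation test gave p = 0.1, the smallest that 3 against 3 libraries allow, with adjusted p = 0.17 over the 5 ratios. Sec61a1 over Sec61a2 and Tram1 over Tram2 overlapped between the groups, with differences of −0.09 and −0.37 and exact permutation p of 0.4 and 0.2.

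A further 5 ratios, of a subunit that rose over one of the same complex that did not, were chosen after the values were seen and are given as a description. Ssr4 over Ssr1 was 3.74 ± 0.03 in OIO islets and 3.10 ± 0.10 in Control islets (SD, n = 3 each). Sec61b over Sec61a1 was 1.64 ± 0.08 in OIO islets and 1.04 ± 0.08 in Control islets. Over Stt3a, the OIO ratio exceeded the Control ratio by 0.60 for Dad1, 0.57 for Rpn2 and 0.48 for Ddost. The groups did not overlap in any of these 5, with OIO higher, as the choice of pairs made likely.

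**Figure D3:**
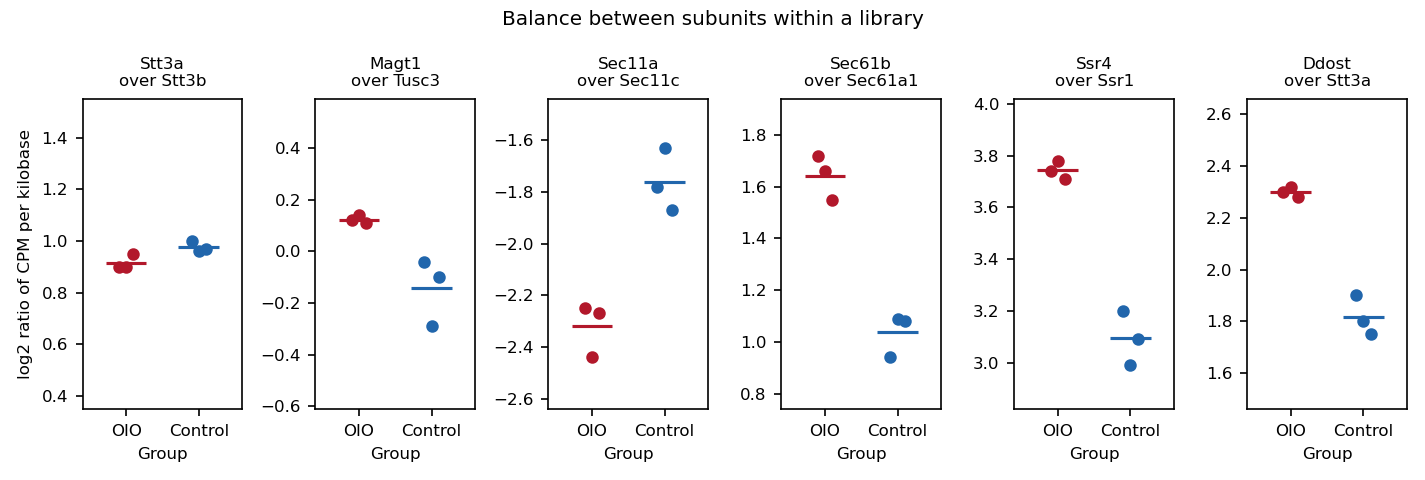
Log2 ratio of CPM per kb for 6 pairs of subunits in each library, OIO left of Control, with a point per library and the group mean as a bar; each panel has its own axis range of equal span. The ratios of Ssr4 to Ssr1 and of Sec61b to Sec61a1 differ between the group means by 0.65 and 0.61, while Stt3a to Stt3b differs by −0.06.

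Called genes differed from the other members in length and base composition. The 10 called genes had a median transcript length of 1180.5 bases and a median GC content of 52.2%, and the other 24 had 2975 bases and 45.3%. Over the 34 genes, Spearman's rho of the log2 fold change with length was −0.28 and with GC content 0.34, and over 10952 well-expressed genes it was −0.20 and 0.14. These are descriptions across genes that share the same libraries. With offsets that remove each library's trend over length and GC content, all 10 genes stayed past the threshold: the log2 fold change was 0.60 for Ssr4 (adjusted p = 0.00075), 0.62 for Rpn2 (adjusted p = 0.00048), 0.59 for Sec11c (adjusted p = 0.00082) and 0.31 for Spcs1 (adjusted p = 0.024), from edgeR's test. Under the same offsets Magt1, with a log2 fold change of 0.30 and adjusted p = 0.031, and Spcs3, with 0.25 and adjusted p = 0.048, also passed. The offsets were fitted to CPM without TMM scaling and applied on top of it, so a library's overall shift was corrected 2 times. The median log2 fold change of all genes was 0.054 with the offsets and −0.012 without. These calls and fold changes are therefore not those of a length and GC correction alone. The part of length and GC content in the differences between members was otherwise not tested.

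**Figure D4:**
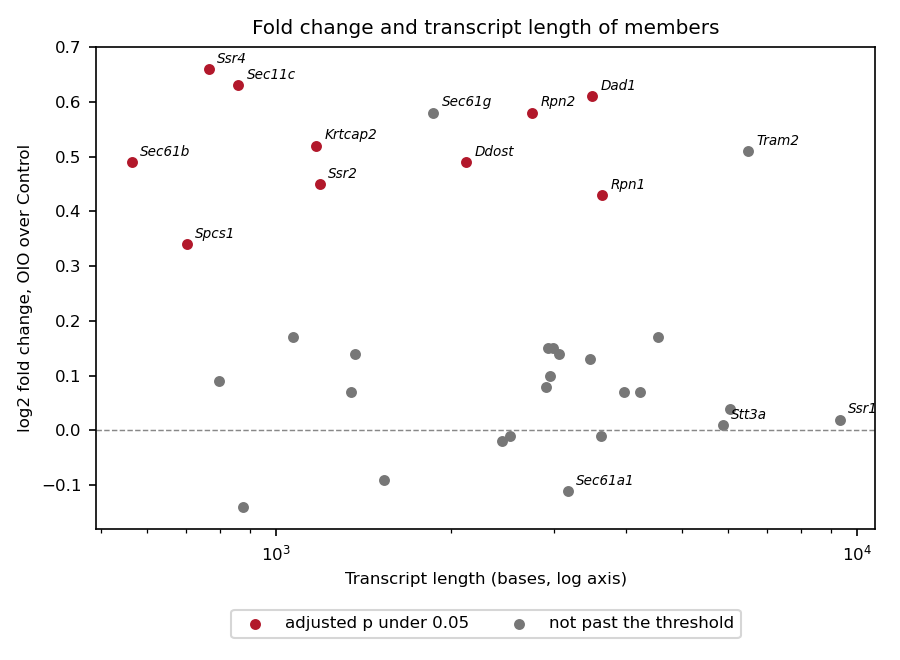
Log2 fold change of OIO over Control against transcript length in bases (log axis) for the 34 genes, where red points are genes past the threshold and grey points are not. The called genes have a median length of 1180.5 bases, against 2975 bases for the others.

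Positions of called genes are given on GRCm38 (GENCODE M21). On the plus strand, Ssr4 spans chrX:73787028-73790830, Sec61b chr4:47474658-47483242, Ddost chr4:138304730-138312628, Rpn2 chr2:157279017-157326319, Rpn1 chr6:88084482-88105304, Krtcap2 chr3:89245966-89249906 and Ssr2 chr3:88575876-88588419. On the minus strand, Dad1 spans chr14:54235479-54254104 and Spcs1 chr14:30999826-31001672. The position of Sec11c is not given here. On the opposite strand, exons of Rpn2 overlap those of Mroh8, Krtcap2 those of Trim46, Spcs1 those of Glt8d1, Ssr2 those of Gm10704 and Rpn1 those of Mir6376. Whether the counting used strand is not stated, so reads in those overlaps cannot be told apart.

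Promoter sequences are shown for called genes because members of this pathway are known targets of the unfolded protein response, whose factors ATF6 and XBP1 bind the ER stress response element (ERSE), CCAAT and CCACG separated by 9 bases, and related motifs. RefSeq promoters (GRCm38.p6) were matched for 25 of the 34 genes, and the 250 bases before the start were searched on both strands. No member held an exact ERSE, against 0.14% of 16375 genes, nor ERSE-II, against 0.0427%, nor the unfolded protein response element TGACGTGG, against 0.757%. CCAAT alone was in 12 of 25 members (48%, against 39.3% of all genes) and CCACG in 14 of 25 (56%, against 36.4%). Allowing 1 mismatch, a search added after the data were seen, ERSE was in 2 of 25 members, Rpn2 and Sec61g (8%, against 1.81%). Stretches of 100 bases just before the start of 4 called genes, and the Rpn2 match with its flanks, are printed 5′ to 3′ on the plus strand, with CCAAT and CCACG of either strand, or for Rpn2 the whole match, in capitals:
Ssr4, chrX:73786913-73787012: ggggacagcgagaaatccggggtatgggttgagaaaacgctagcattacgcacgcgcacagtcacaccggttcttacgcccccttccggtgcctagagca
Sec61b, chr4:47474551-47474650: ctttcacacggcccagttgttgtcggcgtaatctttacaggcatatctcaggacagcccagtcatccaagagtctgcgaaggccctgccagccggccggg
Ddost, chr4:138304628-138304727: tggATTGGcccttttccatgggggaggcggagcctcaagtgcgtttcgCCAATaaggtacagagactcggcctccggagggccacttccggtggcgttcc
Rpn1, chr6:88084363-88084462: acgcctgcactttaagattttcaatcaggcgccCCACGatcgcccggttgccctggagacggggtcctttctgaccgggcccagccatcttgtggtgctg
Rpn2, chr2:157278940-157278998: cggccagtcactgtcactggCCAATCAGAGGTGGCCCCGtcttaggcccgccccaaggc
The Ddost stretch held CCAAT once on each strand, that of Rpn1 held CCACG once, and those of Ssr4 and Sec61b, both among the called genes, held neither. A match is a description and not a shown binding site, and no match says only that these letters are not in this window.

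Partners of the channel outside the 34 genes were taken from lists written by role. Of 13 insertion partners tested, 4 were higher (30.8%, against 4.54% of all genes) and 0 lower (against 2.84%) in edgeR's test. At an unadjusted p under 0.05, 7 were higher and 0 lower. DESeq2 called 5 higher, and limma voom and 5 of the 6 omissions of a library left 3 higher, with 0 lower in each. Tmem147, Nomo1 and Ncln, whose proteins form a complex that sits behind the channel when it inserts membrane proteins, were all among the 4. Tmem147 stood at 65.8, 66.0 and 72.8 CPM in OIO islets and 48.1, 47.9 and 47.0 CPM in Control islets, a log2 fold change of 0.52 ± 0.06 (SE) with adjusted p = 0.0010. Nomo1 stood at 114, 108 and 114 CPM in OIO islets and 83.6, 82.7 and 80.2 CPM in Control islets, with 0.45 ± 0.05 (SE) and adjusted p = 0.0011. For Ncln the log2 fold change was 0.26 with adjusted p = 0.044, and it passed with only 1 of the 6 possible omissions of a library. Hyou1, a chaperone that recharges BiP, had a log2 fold change of 0.37 with adjusted p = 0.012, and BiP itself (Hspa5, named here outside the rule) stood at 1505, 1439 and 1502 CPM in OIO islets and 1321, 1391 and 1567 CPM in Control islets, with adjusted p = 0.69.

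Genes of other insertion routes were also tested. In the ER membrane protein complex, 1 of 10 genes rose, Emc10, with a log2 fold change of 0.23 ± 0.06 (SE) and adjusted p = 0.041, and 0 fell, with 4 higher and 1 lower at an unadjusted p under 0.05; DESeq2 called 2 higher and limma voom 1. In tail-anchored protein insertion, 1 of 7 genes rose, Asna1, the ATPase that carries these proteins, with 0.27 ± 0.07 (SE) and adjusted p = 0.034, and 0 fell, with 1 higher and 0 lower at an unadjusted p under 0.05 and the same counts from DESeq2. A single call in lists of this size is close to the 4.54% of all genes called higher. Emc10 and Asna1 each passed with only 1 of the 6 possible omissions of a library. Whether these lists differ from the 34 genes was not tested.

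Of 3 further subunits and partners of the oligosaccharyltransferase, 1 rose (33.3%, against 4.54% of all genes) and 0 fell. Tmem258, a small further subunit of the enzyme, stood at 81.6, 75.6 and 80.9 CPM in OIO islets and 57.9, 48.3 and 59.1 CPM in Control islets, a log2 fold change of 0.53 ± 0.08 (SE) with adjusted p = 0.0047 in edgeR's test. Mlec and Ost4, listed with it, had 0.18 and 0.21 and did not pass. Of 27 genes that build the lipid-linked sugar chain, 3 rose (11.1%, against 4.54% of all genes) and 1 fell (3.70%, against 2.84%). Those that rose were Alg8 (0.51 ± 0.10 SE, adjusted p = 0.014) and Alg12 (0.41, adjusted p = 0.012), which add sugars to the chain, and Dpm3 (0.40, adjusted p = 0.0077), a subunit of the enzyme that makes the mannose donor. Alg2, which adds early mannoses, fell: it stood at 102, 113 and 112 CPM in OIO islets and 133, 131 and 139.7 CPM in Control islets, a log2 fold change of −0.30 ± 0.06 (SE) with adjusted p = 0.013, and 0.064 without the first OIO library.

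Of 12 genes of sugar trimming and the calnexin cycle, in which newly glycosylated proteins fold, 6 rose and 1 fell. The share called higher was 50%, against 4.54% of all genes tested, and the share called lower 8.33%, against 2.84%. Prkcsh, the beta subunit of the trimming enzyme glucosidase II, had a log2 fold change of 0.61 ± 0.06 (SE) with adjusted p = 0.00066. Calr, encoding the sugar-binding chaperone calreticulin, stood at 1077, 1091 and 1110 CPM in OIO islets and 786, 768 and 772 CPM in Control islets, with 0.49 ± 0.05 (SE) and adjusted p = 0.00070. Pdia3, the disulfide isomerase that works with it, had 0.45 with adjusted p = 0.0013, and Edem1, which marks misfolded glycoproteins for removal, had 0.35 with adjusted p = 0.0047. Uggt1 (0.36, adjusted p = 0.0066), the sensor that sends unfolded proteins round the cycle again, and Mogs (0.25, adjusted p = 0.018), which removes the first glucose, complete the genes that rose, though Mogs passed with only 3 of the 6 possible omissions of a library (highest adjusted p 0.073). Uggt2, a relative of Uggt1, fell with −0.25 and adjusted p = 0.033, and missed the threshold whichever library was omitted.

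**Figure D5:**
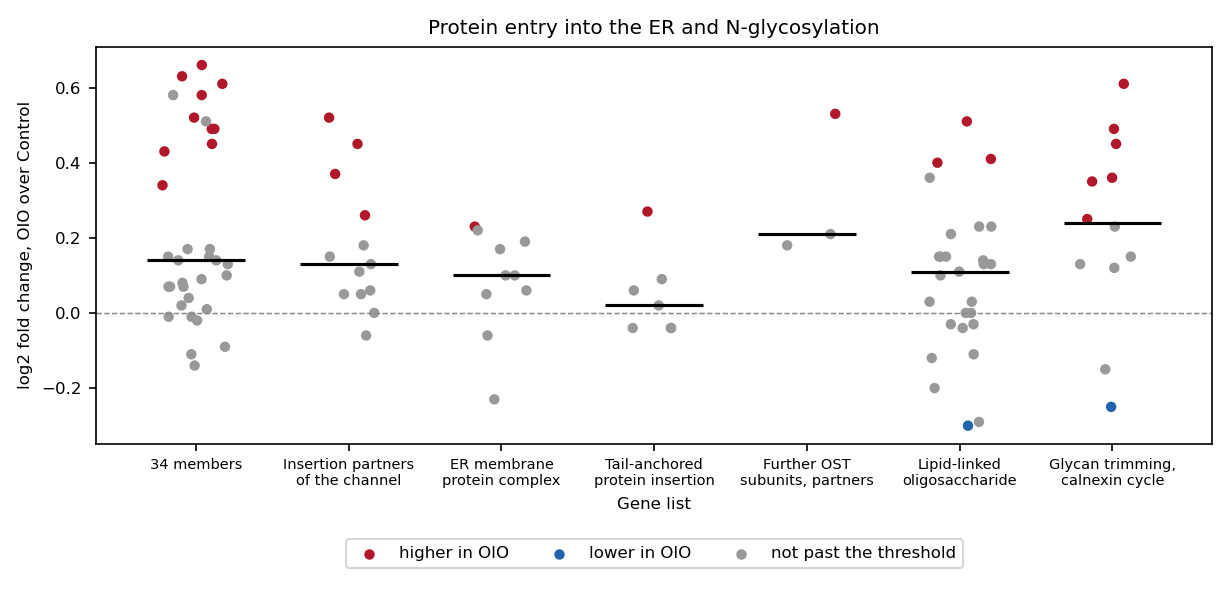
Log2 fold change of OIO over Control for every tested gene of the 34 and of the 6 related lists, 1 column per list, with genes called higher in red, lower in blue and not past the threshold in grey, and a bar at each list's median. The medians run from 0.02 for tail-anchored insertion to 0.24 for trimming and the calnexin cycle, beside 0.14 for the 34 genes.

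Markers of other cells were also detected, and some of their sums were as high as that of the 34 genes. Acinar markers, from cells that are themselves rich in this machinery, summed to 3333 to 7886 CPM in OIO islets and 2882 to 9307 CPM in Control islets, with overlap, none of 10 tested called, 0 at an unadjusted p under 0.05, and Amy2a5 at 0 in every library. Ductal markers summed to 340 to 461 CPM in OIO islets and 282 to 292 CPM in Control islets. Of the 6, 1 (Krt7) was called higher (16.7%, against 4.54% of all genes tested). Most of the sum was Krt7 and Spp1. Spp1, not called, stood at 233, 128 and 140 CPM in OIO islets and 95.6, 107 and 102 CPM in Control islets. Krt19, Sox9, Muc1 and Cftr overlapped between the groups. Leukocyte markers, 149 to 152 CPM in OIO islets and 99.9 to 173 CPM in Control islets, overlapped, with none called in edgeR's test and 0 at an unadjusted p under 0.05. Plasma cell markers summed to 343 to 442 CPM in OIO islets and 319 to 366 CPM in Control islets. Of 5 tested, 1 (Derl3, also an ER degradation gene) was called higher (20%, against 4.54% of all genes tested). Most of each sum was Xbp1, at 299, 324 and 330 CPM in OIO islets and 330, 301 and 335 CPM in Control islets, which overlap. Derl3 stood at 28.9, 40.5 and 38.7 CPM in OIO islets and 14.7, 8.02 and 12.3 CPM in Control islets, without overlap. The group means of Sdc1, Mzb1 and Igj were higher in OIO islets, and their libraries overlapped. Delta and PP cell markers summed to 5934 to 7150 CPM in OIO islets and 7591 to 8261 CPM in Control islets. The lower OIO sum lay mainly in Ppy, which was not called, at 3021, 3993 and 2089 CPM in OIO islets and 4557, 4529 and 4745 CPM in Control islets. Sst and Hhex overlapped between the groups. Ghsr, the 1 of 4 called (25%, against 4.54% of all genes tested called higher), was higher in OIO islets (log2 fold change 0.74, adjusted p = 0.011 in edgeR's test). Endothelial markers summed to 597 to 691 CPM in OIO islets and 628 to 639 CPM in Control islets, and stromal markers to 175 to 336 CPM in OIO islets and 217 to 608 CPM in Control islets. Cycling markers summed to 136 to 157 CPM in OIO islets and 30.6 to 65.6 CPM in Control islets. Of the 5, 3 were called higher (60%, against 4.54% of all genes tested). The part of these cells and of the cycling cells in the differences between the groups was not tested.

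In the authors' deposited table of their own comparison, the same 10 of the 34 genes had an adjusted p under 0.05 with a positive fold change, and 0 with a negative one. The authors' deposited table gives Ssr4 a log2 fold change of 0.66 with adjusted p = 0.0019, Rpn2 0.58 with 0.0022, Dad1 0.61 with 0.0023 and Spcs1 0.34 with 0.024. Its direction is not stated, and its signs match OIO over Control for 97.7% of 14903 genes. Since it was made from the same libraries, it adds no independent measurement.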

How the data were processed

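The deposited count table gives unnormalized whole numbers of counts by gene symbol in 6 islet libraries. A second deposited table holds the authors' comparison, with log2 fold changes, mean log2 expression, 2 scores (a moderated statistic and a log odds), and raw and adjusted p-values for each gene, in columns named as by limma, per the file headers. Bcl2fastq, kallisto, limma, GRCm38 and mm10 are named, without versions or roles, per the submitters' processing notes. Poly(A) RNA was extracted with Trizol and prepared with an Illumina TruSeq kit, per the labels' protocols. Strandedness, and how kallisto estimates became whole counts, are not given in the sources used here; reads of overlapping genes on opposite strands, such as Rpn2 with Mroh8 and Spcs1 with Glt8d1, cannot be told apart. Because the values were whole, none was rounded. Library codes in the table have 1 more zero than those in the labels, and their numbers were matched.

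The main test was that of edgeR 4.0.16 under R 4.3.3 (filterByExpr, TMM, robust quasi-likelihood fit, group as the only term, 4 residual degrees of freedom), with Benjamini-Hochberg adjustment over 14903 genes. The biological coefficient of variation was 10.4%. The SE was derived from the log2 fold change and its F statistic, as the ratio of the size of the change to the root of F. Alternatives were RLE (relative log expression) scaling within edgeR, DESeq2 1.42.0 with its own size factors and test, limma 3.58.1 voom, library size alone and upper-quartile scaling. Further alternatives were no filter, at least 1 CPM in 3 libraries, offsets for length and GC content (loess with span 0.5, over 14016 genes with a length, 94%), and leaving out each library. The offsets were fitted to CPM without TMM scaling and applied together with the TMM factors. The fitting steps were tested on simulated data. Lengths and shared 31-base words came from GENCODE M21, and promoters from RefSeq.

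The labels gave the groups and no batch, and replicates are numbered in accession order. The members and the lists were chosen with earlier results of these data known. All members are accounted for: every member past the threshold, and up to 4 of lowest p per machine, get values in every library, and up to 4 genes of lowest p per related list are named. Hspa5, the other members and the further called trimming genes are named beyond that rule. Of the related and marker lists, 3 entries were matched by synonym and 2 were not matched.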

Additional observations from a re-analysis of the deposited data

How the results depend on the processing

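Of the 10 called members, 9 passed in all 14 tested alternatives, and Spcs1 missed in 1. Members called higher ranged from 9 to 11 when 1 library was left out and were 12 with length and GC offsets, and members called lower were 0 throughout. The members' median log2 fold change was 0.08 with library size alone, where the median of all genes moved to −0.077, and 0.10 to 0.18 with 1 library left out. Over all genes, library size alone gave 498 higher and 1113 lower, length and GC offsets 937 higher and 145 lower, and leaving out 1 library 336 to 560 higher and 112 to 303 lower. The offsets also held each library's overall shift and were applied on top of TMM scaling, with a median of all genes of 0.054. The part of this in the offset counts, and the cause of the other shifts, were not tested. None of the members that changed sign was called in any setting. With library size alone the log2 fold change was −0.03 for Sec63, −0.05 for Ssr1, −0.0011 for Sec11a, and −0.05 for Stt3a, and for Sgta of the tail-anchored insertion list −0.0027. With length and GC offsets it was 0.04 for Sec61a2, 0.03 for Srp68 and 0.08 for Srp72. With RLE scaling in edgeR it was 0.00076 for Srp68 and 0.0013 for Srp72, and in DESeq2's test 0.0015 and 0.0013. Leaving out 1 library, Sec61a2 ranged from −0.06 to 0.05, with 0.02 between, Ssr1 −0.0067 and −0.0017, Srp68 from −0.04 to 0.06, with 0.0084 between, Srp72 0.0016 to 0.03, and Stt3a −0.01 and −0.0036. For the ER membrane protein complex the genes called higher were 0 (library size), 2 (upper quartile, DESeq2), 3 (offsets) and 0 to 1 (1 library left out), and those lower 1 (library size). For tail-anchored insertion they were 0 (library size) and 0 to 1 (1 library left out). Further oligosaccharyltransferase genes called higher were 2 with DESeq2 and with offsets. Lipid-linked synthesis had 5 higher with offsets, 3 lower with library size alone and 0 to 2 lower with 1 library left out. Trimming had 2 lower with library size alone, 0 with offsets and 0 with any library left out. Signal peptidase had 1 to 2 higher with 1 library left out. With 1 CPM per kb added, the difference in log2 Tram1 over Tram2 was 0.05. The cause was not tested for any of these. No paired analysis was possible because each library has a code of its own and the replicate numbers were given in accession order. Sec61g and Tram2, the members of lowest level, had coefficients of variation of 12.9% and 18.8% over OIO libraries and 30.1% and 16.3% over Control libraries, and the part of depth in this spread was not tested.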
